A study of Capra hircus with 2 samples.

Results

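miR-192, miR-194 and miR-215 are microRNAs (miRNAs), short RNAs that guide a silencing complex to messenger RNAs carrying matches to their seed. Their members in goat endometrium were taken as every known miRNA name that read miR-192, miR-194 or miR-215 after its species prefix, whatever the species, the arm or the end annotation. The rule found 7 names of the 587 distinct known names: 2 of miR-192, 4 of miR-194 and 1 of miR-215. A name carries the prefix of the species whose database entry it matched, such as hsa for human, oar for sheep, bta for cow and mdo for opossum.

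The endometrium came from Xinong Saanen dairy goats that had given birth before, were 24 months old, were synchronized in estrus and mated naturally. Tissue was taken on gestational day 5, the pre-receptive phase (P), from 10 goats and on gestational day 15, the receptive phase (R), from 10 others, and the comparison asks which miRNAs differ between an endometrium that cannot yet take the embryo and one that can. RNA of 9 goats per phase was pooled into 3 samples, and the small RNA library of each phase was sequenced 3 times. Each miRNA has 1 deposited value per library, so there were 2 libraries in all, no replicates, and no measure of the spread between goats, which the pools hide. As depth, the known names held 1904242 reads in the R library, 45.0% of its clean reads, and 4046632 reads in the P library, 75.1% of its clean reads.

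In mammals these miRNAs are known above all from epithelia of the gut and kidney and from liver. They are encoded as pairs, a miR-194 gene beside miR-192 at a site and another beside miR-215 elsewhere, and each pair can be copied from a shared primary transcript. miR-192 and miR-215 share their seed and are raised by the tumor suppressor p53, while miR-194 has a seed of its own.

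The mature sequences are given first, because they decide which members can act on the same messengers. Each is written from 5′ to 3′ with T for U as in the deposited table, and the capitals mark the seed, bases 2 to 8. The ending R-4, R+2 or R-1 of a name means that the sequence was 4 bases shorter, 2 bases longer or 1 base shorter at its 3′ end than the database entry.
hsa-miR-192-5p: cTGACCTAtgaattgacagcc
mdo-miR-215_R-1: aTGACCTAtgaattgacagac
oar-miR-194: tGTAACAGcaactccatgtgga
oar-miR-194_R-4: tGTAACAGcaactccatg
bta-miR-194_R+2: tGTAACAGcaactccatgtggaaa
hsa-miR-192-3p: cTGCCAATtccataggtcacag
hsa-miR-194-3p: cCAGTGGGgctgctgttatctg

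The sequences fall into 4 seeds. hsa-miR-192-5p and mdo-miR-215_R-1 have the seed TGACCTA and are both 21 nt long. Of their bases 19 were the same, and they differed by C1A and C20A, with positions counted from 1 at the 5′ end and the miR-192 base first. Telling their reads apart therefore rests on the first base and the last but one. The 3 names of the 5p arm of miR-194 share the seed GTAACAG and differ in their 3′ ends alone, at 18, 22 and 24 nt. The 3p arms, TGCCAAT for miR-192 and CAGTGGG for miR-194, have a seed each. Opposite arms of a hairpin pair with each other, and the longest unbroken complementary stretch was 9 bases for hsa-miR-192-5p with hsa-miR-192-3p and 8 bases for oar-miR-194 with hsa-miR-194-3p. None of the other 580 known names and none of the 621 predicted candidate sequences had any of the 4 seeds.

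The RefSeq annotation of the goat assembly ARS1.2 lists the genes MIR192, MIR194 and MIR215. MIR215 and MIR194 are next to each other and lie within the bounds of IARS2, the gene of a mitochondrial isoleucyl-tRNA synthetase, with BPNT1 before and RAB3GAP2 after them. MIR192 is on another chromosome, between LOC102184696 and ATG2A, a gene of autophagy. The annotation thus shows no MIR194 next to MIR192. The deposited conservation table gave a mir-192 precursor for 12 of 23 species, mir-194 for 12 and mir-215 for 13, and 9 species had all of them. For 6 species, cow and human among them, it held 2 mir-194 precursors. The number of precursors listed per species ran from 295 for cow to 5 for a fruit bat, with 74 for sheep. A precursor that is not listed is therefore not shown to be absent from the species. Sheep, the nearest relative of the goat in the table, had mir-194 as the single precursor of these, and opossum had mir-215, and the members of those miRNAs carry their prefixes, beside cow and human for miR-194.

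Expression is given as the deposited normalized expression (NE), in which 1 read of a name listed once, as every member is, was worth 0.860 NE in R and 1.16 NE in P. For comparison with other names, the 54 known names that are listed for 2 precursors, with the same NE in both entries, are given the NE of 1 entry. hsa-miR-192-5p had 2454 NE in the R library (2854 reads) and 5510 NE in the P library (4738 reads). It was the 50th most abundant of the 587 known names in R and the 38th in P, or 51st and 40th when the NE of repeated names was summed over their entries. It made up 91.4% of all member reads in R and 94.8% in P, so that the summed NE of the members, 2685 in R and 5815 in P, was in the main a measure of this name. In bulk tissue, fewer cells that hold a miRNA and less of it in each cell cannot be told apart.

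oar-miR-194, the full-length 5p arm, had 174 NE in R and 234 NE in P. Behind them stood almost equal numbers of reads, 202 for R and 201 for P, so that the gap in NE comes from the different worth of a read. It ranked 135th in R and 123rd in P. The 18 nt form, oar-miR-194_R-4, had 41.3 NE in R (48 reads) and 53.5 NE in P (46 reads), and the 24 nt form, bta-miR-194_R+2, had 3.44 NE in R and 4.65 NE in P on 4 reads in each library. Both end variants thus lay below the full-length form in each library.

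The remaining members were close to the limit of detection. A count of 0 allows up to 3 reads, which is 2.58 NE in R and 3.49 NE in P. mdo-miR-215_R-1 had 6.88 NE in R (8 reads) and 3.49 NE in P (3 reads), the value in P being at this limit. hsa-miR-192-3p had 5.16 NE in R (6 reads) and 9.30 NE in P (8 reads). hsa-miR-194-3p had 0.860 NE in R, a single read, and was listed at 0 in P, so no ratio was taken for it. The 5p arm therefore held nearly all reads of each hairpin for which both arms were listed.

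**Figure D1:**
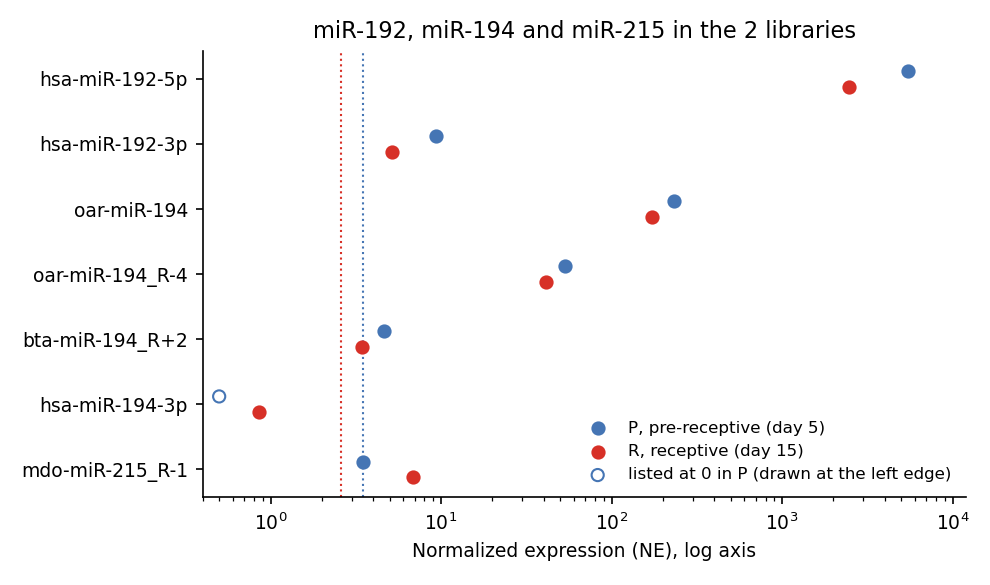
Normalized expression (NE, horizontal log axis) of the 7 members in the P library (blue) and the R library (red), 1 value per library. Dotted lines mark the limit that a count of 0 allows, 2.58 NE in R and 3.49 NE in P. hsa-miR-192-5p lies above the other members in both libraries, while hsa-miR-194-3p and, in P, mdo-miR-215_R-1 lie at or below the limit.

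By NE, hsa-miR-192-5p was 2.25-fold lower in R, a log2 ratio (R over P) of -1.17 (95% exact Clopper-Pearson interval of its reads -1.23 to -1.10). With reads set against the clean read total of each library the log2 ratio was -0.38, within 2-fold, and with reads set against the summed reads of all known names its direction turned, to 0.36. The interval covers counting error in these 2 libraries only, because reads copied by PCR and carrying no molecular identifier are not separate molecules, and it has no part of the spread between goats. No test between the phases was possible with 1 library each. A difference was counted when it passed 2-fold, the limit used for all names.

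The log2 ratio of oar-miR-194 was -0.43 (-0.72 to -0.14), and those of its 18 nt and 24 nt forms were -0.37 (-0.99 to 0.24) and -0.44 (-2.86 to 1.99). The ratios of all of these were above 0, and not below it, with the clean read total (0.35, 0.41 and 0.35) and with the summed known reads (1.09, 1.15 and 1.09). With the clean read total the intervals of the 18 nt form (-0.21 to 1.02) and of the 24 nt form (-2.08 to 2.77) held 0. With the summed known reads that of the 24 nt form still did (-1.34 to 3.51). None of the 3 forms of miR-194 passed 2-fold by NE. hsa-miR-192-3p had a log2 ratio of -0.85 with an interval of -2.66 to 0.87 that held 0, and it turned to 0.67 with the summed known reads. Of the 6 members compared, mdo-miR-215_R-1 alone had a higher NE in R, with a log2 ratio of 0.98 (-1.08 to 3.53) that stayed within 2-fold. It was higher in R under the other scalings too. With the clean read total (1.76, -0.30 to 4.31) and with the summed known reads (2.50, 0.44 to 5.05) it was past 2-fold, on 8 and 3 reads.

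Of the 438 known names with an NE above 0 in both libraries and at least 1 in either, 72 were past 2-fold lower in R, which is 16.4%, and 100 were past 2-fold higher, which is 22.8%. Of the 6 members compared, 1 was past 2-fold lower and 0 were past 2-fold higher. The count of lower members was thus close to the share among all names, while the count of 0 higher members stood under the 22.8% of all names, on 6 members only. The median log2 ratio of the 438 names was 0.03 with NE, 0.81 with the clean read total and 1.55 with the summed known reads, a shift of 0.78 or 1.52 for every name alike. Under those scalings 0 of the 6 members were past 2-fold lower, and 1 and 4 were past 2-fold higher. Of all 438 names, 6.85% and 2.97% were then past 2-fold lower, and 44.5% and 71.9% past 2-fold higher. Among all names the split was then 195 higher to 30 lower and 315 higher to 13 lower, so that 86.7% and 96.04% of those past 2-fold were higher in R, in place of 58.1% with NE.

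**Figure D2:**
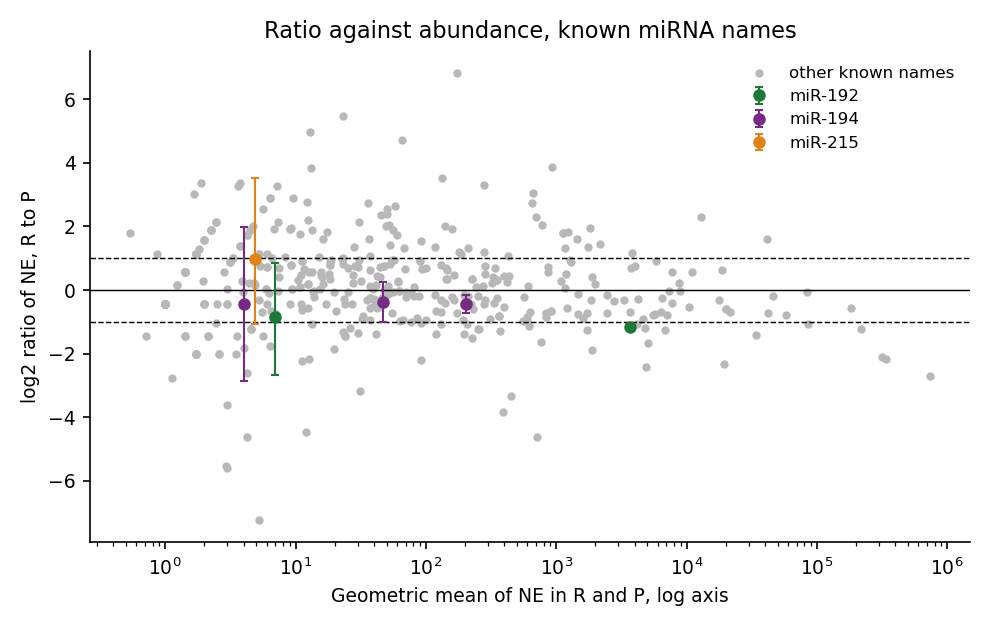
The log2 ratio of NE, R to P (vertical axis), against the geometric mean of NE in R and P (horizontal log axis) for the 438 known names compared, 1 point per name. Colored points are the 6 members with bars for the 95% exact interval, and dashed lines mark 2-fold. With NE, hsa-miR-192-5p lies just past the lower line at -1.17, and the bars of the members with few reads cross 0. With the summed known reads every point would stand 1.52 higher, and hsa-miR-192-5p would be at 0.36.

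**Figure D3:**
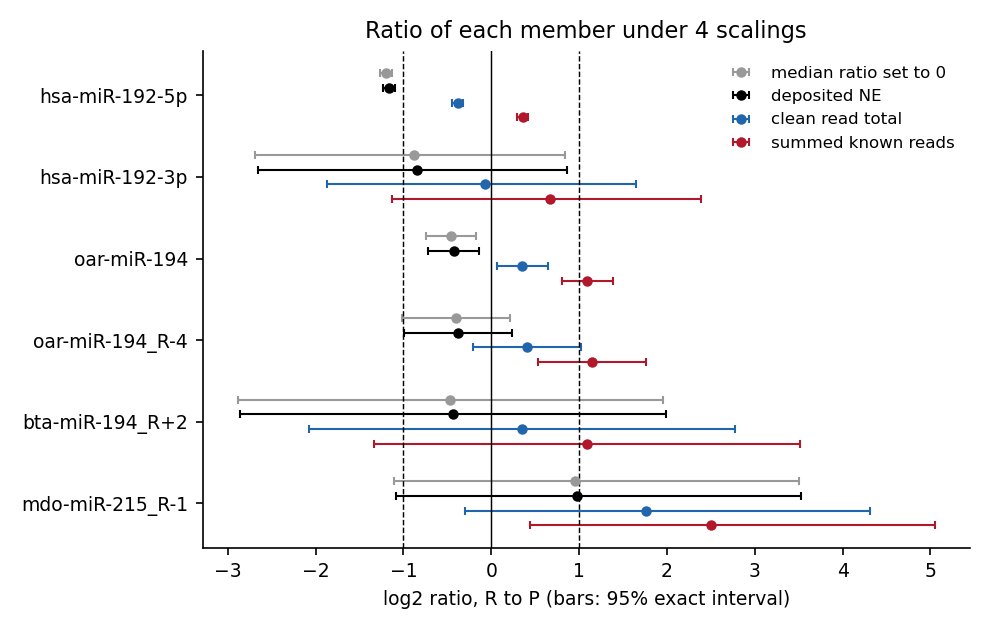
The log2 ratio of R to P (horizontal axis) of each member compared, with the deposited NE and with 3 other scalings of the same reads. Points are ratios, bars are 95% exact intervals and dashed lines mark 2-fold. hsa-miR-192-5p moves from -1.17 with NE to 0.36 with the summed known reads, and oar-miR-194 from -0.43 to 1.09.

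Where a member stands among the other names does not depend on the scaling. Of the 438 names, 14.2% had a lower log2 ratio than hsa-miR-192-5p and 37.0% a lower one than oar-miR-194. For hsa-miR-192-3p this share was 19.4%, and for mdo-miR-215_R-1 it was 76.9%. hsa-miR-192-5p thus stood towards the lower end of the ratios and miR-194 nearer to the middle.

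Ratios of reads within a library carry no scaling either, and they set the members against each other. The 5p arm of miR-192 had 11.2 reads for each read of the 5p arm of miR-194 in R and 18.9 in P. The odds ratio, R over P, came to 0.595 with a 95% exact conditional interval of 0.495 to 0.716. This interval and those of the other odds ratios and shares again cover counting error alone and compare these 2 libraries, not the phases. In these libraries there were fewer reads of miR-192 for each read of miR-194 in R than in P. Whether miR-192 was lower or miR-194 higher cannot be told from the ratio. With hsa-miR-192-5p and oar-miR-194 alone the odds ratio was 0.599 (0.488 to 0.737).

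The length forms of miR-194 had similar shares in both libraries. The 18 nt form made up 18.9% of the 254 reads of the 5p arm in R (exact interval 14.3% to 24.3%) and 18.3% of the 251 reads in P (13.7% to 23.7%). The odds ratio of 1.04 had an interval of 0.647 to 1.67, so that a difference was not detectable at this depth, and a change of up to 1.67-fold in the odds is not excluded. The 24 nt form was 1.57% of these reads in R and 1.59% in P.

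The share of miR-215 among reads with the seed TGACCTA was 0.280% in R (8 of 2862 reads, exact interval 0.121% to 0.550%) and 0.0633% in P (3 of 4741 reads, 0.0131% to 0.185%). The odds ratio was 4.43 with an interval of 1.06 to 25.9, whose lower limit is close to 1. The seed as a whole was therefore that of miR-192 in both libraries, with 2461 NE in R and 5514 NE in P. Among the 448 distinct seeds of the known names, TGACCTA ranked 37th in R and 30th in P by summed NE, and GTAACAG, the seed of miR-194, ranked 93rd and 83rd. With NE summed over the entries of repeated names these ranks were 39th and 31st, and 95th and 86th.

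miR-215 can also be set against miR-194, whose annotated goat gene is its neighbor. Mature reads were not assigned to a gene, so reads from any miR-194 gene beside miR-192 would be included. For 8 reads of miR-215 there were 254 reads of the 5p arm of miR-194 in R, and for 3 reads there were 251 in P. The odds ratio was 2.63 with an interval of 0.622 to 15.6, which includes 1. The 3p arm held 0.210% of the miR-192 reads in R and 0.169% in P, with an odds ratio of 1.25 (0.356 to 4.10). No difference in the use of the arms was detectable on 6 and 8 reads.

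**Figure D4:**
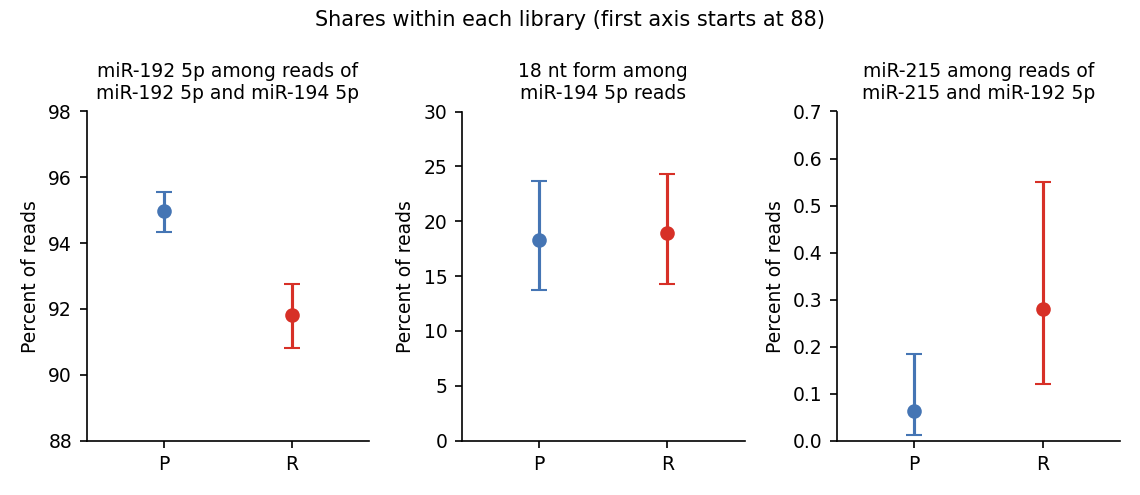
Shares of reads within the P library (blue) and the R library (red), in percent, with bars for the 95% exact interval. The first axis does not start at 0. miR-192 made up 91.83% of the miR-192 and miR-194 5p reads in R and 94.97% in P, the 18 nt form of miR-194 had overlapping bars, and miR-215 had a larger share in R on 8 reads against 3.

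The names nearest to a member in the plane of its R and P values were found by the distance between log2 NE over the 2 libraries. For hsa-miR-192-5p they were cfa-miR-196b (R 2886 NE, P 5980 NE), oar-miR-103_R-1, mmu-miR-148a-3p_R+1, mdo-miR-181b-5p and bta-let-7d, at distances of 0.26 to 0.64. Their log2 ratios ran from -1.19 for mdo-miR-181b-5p to -0.33 for bta-let-7d, and 4 of the 5 were closer to 0 than the -1.17 of hsa-miR-192-5p. For oar-miR-194 the nearest were hsa-miR-140-5p (198.6 NE in R and 226.8 in P), ggo-miR-197 and oar-miR-30c_R+2, with log2 ratios of -0.19, -0.44 and -0.14. All but mdo-miR-181b-5p and cfa-miR-196b lay within 2-fold by NE. With 2 libraries such a likeness rests on 2 values per name.

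Other miRNAs known to respond to p53 were described beside miR-192 and miR-215. The list held 14 names, of miR-34a, miR-34b, miR-34c, miR-15a, miR-16, miR-16b, miR-143 and miR-145, and all were compared. Of these, 4 were past 2-fold lower in R and 3 past 2-fold higher, beside 16.4% and 22.8% of all names, and the median log2 ratio was 0.63. The 4 lower names were those of miR-143 and miR-145, which also belong to the muscle list, and of the other 10 names 0 were past 2-fold lower. aja-miR-143_1ss22GT, the most abundant, had 289634 NE in R and 1866274 in P, a log2 ratio of -2.69, whereas hsa-miR-34c-5p had 2778 NE in R and 1090 in P, a log2 ratio of 1.35. oar-miR-16b_R+2 had 7323 NE in R and 7470 in P. With the summed known reads 10 of the 14 were past 2-fold higher and 1 lower, beside 71.9% and 2.97% of all 438 names under that scaling.

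Since miR-192, miR-194 and miR-215 are known from epithelia, the markers of cell types were set beside them. Of 16 names for epithelial miRNAs, 13 were compared. By NE, 12 were past 2-fold higher in R and 0 lower, beside 22.8% and 16.4% of all names, with a median log2 ratio of 3.04. The summed NE of the epithelial list was 38573 in R and 6977 in P. All 13 names compared were higher in R under every scaling. With the clean read total and with the summed known reads all 13 were past 2-fold higher, beside 44.5% and 71.9% of all names. hsa-miR-141-3p_R-1, a member of the miR-200 family and the most abundant epithelial name, had 28337 NE in R and 5791 in P. bta-miR-182 and ptr-miR-203_L-1R+1 had 3519 and 1897 NE in R and 242 and 230 NE in P. The 3 epithelial names listed at 0 in P were hsa-miR-182-3p_L+2R-1, hsa-miR-183-3p_L-1 and mmu-miR-203-5p_1ss11GA. They had 2, 1 and 5 reads in R, where a count of 0 allows up to 3 reads. By NE, hsa-miR-192-5p and oar-miR-194 thus had log2 ratios of the opposite sign to these markers, and with the summed known reads, where both members were higher in R, their ratios of 0.36 and 1.09 stood below the median of the epithelial list, then 4.57. Whether the amount of epithelium had a part in the values of the members was not tested.

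The muscle markers moved the other way. Of 10 names, 9 were past 2-fold lower in R and 0 higher, beside 16.4% and 22.8% of all names, with a median log2 ratio of -2.55. With the summed known reads 5 were lower and 1 higher, beside 2.97% and 71.9% of all names. The summed NE of the muscle list, 292640 in R and 1883319 in P, was mostly that of aja-miR-143_1ss22GT, which fibroblasts express as well. None of the 10 names was at 0, but some had 1 read or less in R, under the limit of 3 reads. The lowest log2 ratio of the list, -7.23, was among these. oar-miR-133_L+1, known from striated muscle and listed for 2 precursors, had 144.9 NE in R and 3558 in P in each entry. Their part in the lower NE of hsa-miR-192-5p was not tested. The ratio of -1.17 for hsa-miR-192-5p lay between the medians of the muscle list and of all names.

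Markers of liver and pancreas had few reads, and no list was made for gut or kidney. Liver was represented by hsa-miR-122-5p_R-1 alone, with 7.74 NE in R (9 reads) and 3.49 NE in P (3 reads). The 3 names of the pancreas list were all listed at 0 in R and summed to 33.7 NE in P. These values stood far below the 2454 and 5510 NE of hsa-miR-192-5p. Whether liver or pancreas had a part in the values of hsa-miR-192-5p was not tested.

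Markers of stroma, vessels and blood differed less by NE than those of epithelium and muscle. Of all names, 22.8% were past 2-fold higher by NE and 16.4% lower. The 7 names of the fibroblast list had a summed NE of 97321 in R and 97156 in P, none was past 2-fold in either direction, and the most abundant, oar-miR-199a-3p, had 82015 NE in R and 84822 in P. The 4 names of miR-126, the endothelial marker, had 32841 NE in R and 21287 in P, and 0 were past 2-fold. Of 9 names for blood and immune cells, 8 were compared. By NE, 2 were past 2-fold higher, close to the share among all names, and 0 lower. The summed NE of the blood and immune list was 12221 in R and 12134 in P, with names going both ways. cgr-miR-142-5p_L-2R+1 had 5689 NE in R and 2524 in P, and cgr-miR-486-5p had 5052 in R and 8073 in P. In the same list, oan-miR-223-3p_1ss22AT was listed at 0 in P and had 1 read in R. Summed over the entries of repeated names, the NE was 105250 in R and 101394 in P for fibroblasts and 18333 and 14843 for blood and immune cells. With the summed known reads all 7 fibroblast names, all 4 endothelial names and 5 of the 8 blood and immune names were past 2-fold higher in R, beside 71.9% of all names.

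Predicted targets were deposited as numeric identifiers without gene names, so they are described by number. Of the 7 members hsa-miR-192-5p alone was in this table, which was restricted to miRNAs taken as differentially expressed. It had 405 identifiers, 5.32% of the 7608 in the table. The lists ran from 81 to 1331 identifiers with a median of 578.5, and 37 names had fewer targets than hsa-miR-192-5p.

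Most of these targets were predicted for other names as well, as in the table at large. An identifier on its list was predicted for a median of 21 miRNA names, against 8 for all identifiers, and 3 of the 405 (0.741%) were predicted for no other name, beside 0.709% of all pairs in the table. A list holds widely predicted identifiers more often than rare ones by its nature, and the same median over the lists of all names was 19, from 10 to 28. All other names of the table shared targets with it, from 4 to 136. cfa-miR-196b, the name nearest in expression, shared 51 identifiers, 12.6% of the miR-192 list and 12.1% of its own. aja-miR-143_1ss22GT shared 124, which was 30.6% of the miR-192 list and 11.9% of its own list of 1043, and bta-miR-182, which was higher in R, shared 88, or 21.7% and 11.6%.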

How the data were processed

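Small RNA of 1 receptive (R) and 1 pre-receptive (P) library was measured by sequencing reads of 36 bases. The authors removed adapters, junk, common RNA families and repeats, matched sequences of 18 to 26 nt to miRBase 20.0 and deposited for each name a normalized signal per library. Their methods describe a division by the clean read total, but the values behave as reads divided by 1 size factor per library that is not this total. The scaling to the clean read total, given as an alternative, has the form of that stated formula. Reads were recovered by dividing the signal by the worth of 1 read, the commonest low value. They were whole to within 0.01 read for 85.2% of the names detected in R and 87.5% in P, and for all members, so exact intervals were computed for members and no count test was run over all names. Names listed for 2 precursors were collapsed to 1, with the NE of 1 entry and with reads summed over both entries. The summed reads were whole for 95.9% of such names in R and 97.9% in P, against 30.6% and 51.1% with 1 entry. Summed NE was added as an alternative after seeing the data. The deposited candidate table was used for its sequences, because its R and P labels were swapped relative to the differential expression table. The labels of the known table equalled the latter within 0.006 NE for all 340 shared names. The authors' fold, log2 and P-value columns hold their own comparison and were not used. Targets had been predicted with TargetScan 5.0 and miRanda.

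The names given in the text were all members, names sharing a seed, the 5 and 3 names nearest to hsa-miR-192-5p and oar-miR-194, and up to 4 most abundant names of each list, together with list names at 0. The members and lists were chosen with earlier results of these data known. Ratios and intervals were tested on simulated data. Alternatives were 3 other scalings, a pseudocount of 1 NE, other filters and other denominators. The work was done in Python 3.11.15 with scipy 1.17.1, pandas 2.3.3, matplotlib 3.10.9 and numpy 2.4.6.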

Additional observations from a re-analysis of the deposited data

How the results depend on the processing

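The scaling between the libraries set the direction of most members. For hsa-miR-192-5p the log2 ratio of -1.17 became -0.38 with the clean read total and 0.36 with the summed known reads, and for oar-miR-194 the -0.43 became 0.35 and 1.09. These shifts follow from the totals used, since the reads stay the same, and which total fits the tissue was not tested. The 1 member past 2-fold lower became 0 under both. Known names past 2-fold lower in R went from 72 to 30 and 13, and names past 2-fold higher from 100 to 195 and 315. Summing NE over the entries of repeated names, chosen after seeing the data, left the counts at 72 and 100. With at least 10 reads required in both libraries, fewer names were compared and the counts were 40 and 47. Of 45 alternatives, 31 stayed within the counting interval or within 1.5 times the count, but 5 of the 31 turned direction or passed 2-fold, inside the wide intervals of hsa-miR-192-3p (0.67 with the summed known reads), bta-miR-194_R+2 (0.35 with the clean read total and 1.09 with the summed known reads) and mdo-miR-215_R-1 (1.76 and 2.50). The others include the median ratio set to 0, the pseudocount of 1 NE, and both comparisons within a library, where the odds ratio of miR-192 to miR-194 was 0.595 or 0.599 and the share of the 18 nt form differed by 0.571 or 0.577 percentage points. A 2-fold limit joined to an exact binomial test was not run, because some names hold fractions of a read. No paired analysis was possible because each phase has 1 library. Depth limits hsa-miR-192-3p, hsa-miR-194-3p, bta-miR-194_R+2 and mdo-miR-215_R-1, each with at most 8 reads in a library.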
